A study of Solanum lycopersicum with 12 samples.

Results

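Catalases and ascorbate peroxidases are among the enzymes that break down hydrogen peroxide in plant cells. Of their genes, 5, represented by 6 probe sets, could be followed by name on the tomato (Solanum lycopersicum) array among 802 named genes and 10038 probe sets. The members were all probe sets whose symbol in the array's probe-to-gene table reads cat1, CAT2, APX, APX1 or APX2. Each gene had 1 probe set except APX2, which had 2. The study hybridised total RNA from roots and leaves, each with or without cadmium (Cd), on 12 single-colour Affymetrix arrays, in 4 groups of 3. They are called root control, leaf control, root Cd and leaf Cd below. Nothing else was varied according to the labels, which give no dose, exposure time, plant age, cultivar or genotype for any group and give no record of separate plants or cultures behind the 3 arrays in a group. The p-values therefore describe the spread among these arrays alone. The source label of the 3 arrays titled leaf Cd describes leaves without Cd. They were grouped by title, and this contradiction applies to every leaf Cd value below.

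Catalase splits hydrogen peroxide into water and oxygen without a reducing partner and works mainly in peroxisomes, where photorespiration and fatty acid breakdown release much peroxide. Ascorbate peroxidase reduces hydrogen peroxide with ascorbate and acts in the cytosol, chloroplasts, mitochondria and peroxisomes. The oxidised ascorbate is then recycled by monodehydroascorbate reductase, dehydroascorbate reductase and glutathione. Cadmium is not redox active itself, but exposure to it is commonly accompanied by hydrogen peroxide accumulation in plants, which is why these enzymes are often measured in Cd studies.

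CAT2 and cat1 are annotated as catalase genes, and APX1 and APX2 as ascorbate peroxidase genes. In the current RefSeq gene table APX1 and APX2 lie next to each other, with 0 annotated genes between them. Probe sequences were not used here, so whether probes of the APX1 or APX2 probe sets also bind transcripts of the neighbouring gene was not tested. The identity of the gene called APX is less certain. Its gene record has no match in the current table, where the name APX is a synonym of 2 genes, APX2 and APX6, so it is given below only as APX, an ascorbate peroxidase by its symbol.

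Values are log2 expression as deposited, between 1.55 and 13.29 over the whole table, and all 6 probe sets lay above the highest negative control on all 12 arrays. Root arrays had medians of 7.457 to 7.505 and leaf arrays medians of 6.85 to 6.894, a difference of 0.60 that no label explains, so root-leaf differences are given as deposited and after centring each array on its median. Arrays of a group correlated at 0.96 to 0.994. Spread was widest among leaf Cd arrays, where the median SD over all probe sets was 0.28, against 0.15 to 0.19 in the other groups. The labelled tissues were checked with marker genes. Of 6 root markers, the iron-uptake regulator FER, the phosphate transporter PT2 and the extensin ext1 were above background on every root array and at background on every leaf control array, and FER was above it on 1 leaf Cd array. The other 3 were above background on all leaf arrays. Of these, the ferric reductase FRO1 went against its place in the list. It was lower in root than in leaf, with -2.45 between controls (adjusted p = 0.0147) and -2.82 with Cd (adjusted p = 0.00675), and above background on 2 of 3 root controls. AMT1-2 and PT1 were 0.90 and 0.85 higher in root than in leaf controls as deposited, and 0.31 and 0.26 higher centred. With Cd their root minus leaf differences were 0.55 and 0.71 as deposited, and -0.07 and 0.09 centred. The summed level of the 6 (log2 of the linear sum) was 11.65 to 11.96 in root controls, 12.28 to 12.41 in root Cd, 10.17 to 10.76 in leaf controls and 10.67 to 11.28 in leaf Cd. The 8 chlorophyll-binding, photosystem and plastocyanin genes used as markers of green tissue were above background on all arrays, roots included. Their summed level was 14.1 to 15.02 in root controls, 13.43 to 13.99 in root Cd, 15.12 to 15.24 in leaf controls and 14.81 to 15.05 in leaf Cd.

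**Figure D1:**
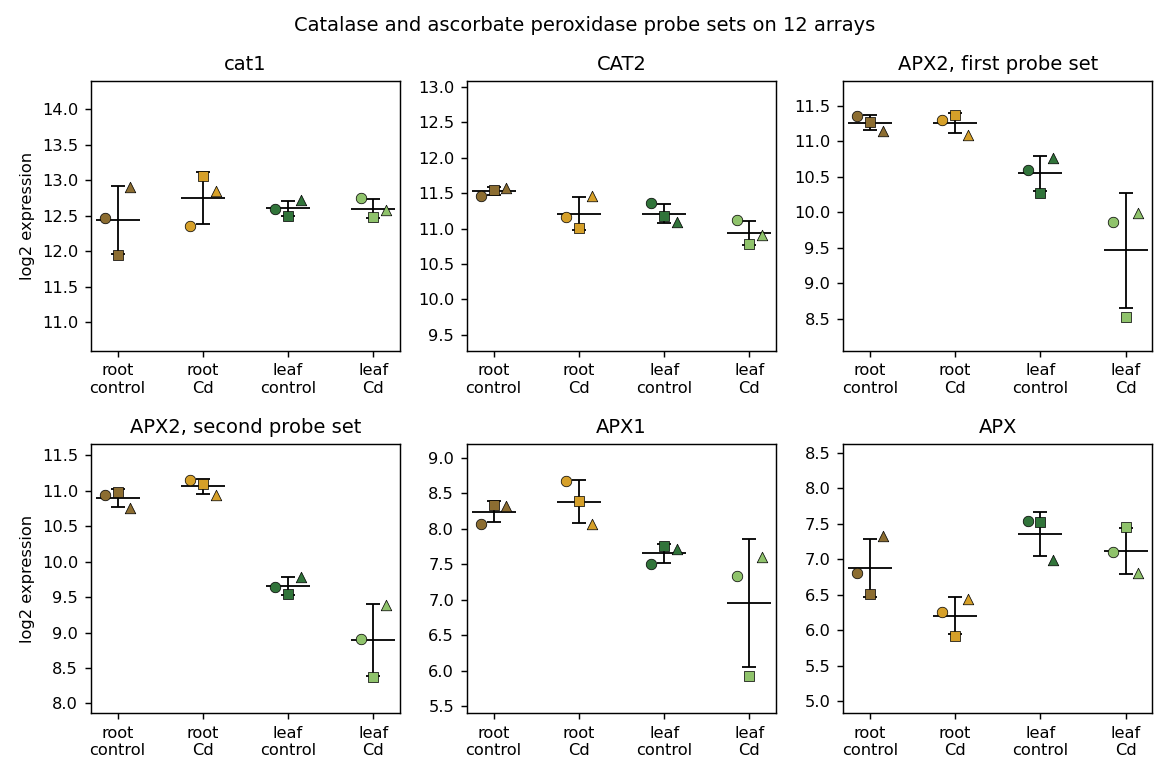
Log2 expression of the 6 catalase and ascorbate peroxidase probe sets in the 4 groups. Points are single arrays (circle, square and triangle for array numbers 1, 2 and 3), horizontal lines are means and bars are SDs (n = 3), and each panel spans the same number of log2 units. The leaf Cd arrays lie below all leaf controls for both APX2 probe sets, leaf Cd 2 is low for APX2 and APX1, and the root Cd arrays lie below all root controls for CAT2 and APX.

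The first comparison set roots given Cd against control roots. None of the 6 probe sets passed an adjusted p of 0.05 in root with limma's moderated test over all 10038 probe sets, of which 3.03% passed (1.07% higher and 1.96% lower with Cd). An unadjusted p under 0.05 was found for 1 of the 6, and for 17.4% of all probe sets. The 6 split evenly, with 3 higher and 3 lower. Their median log2 difference was 0.07, and that of all probe sets was 0.02. APX and CAT2 were the members with no overlap between root Cd and root control arrays, both with the lower values under Cd. Of all probe sets, 27.4% had no overlap in either direction and 13.9% had such a separation downwards.

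In root the APX transcript had the largest difference among the members. Its log2 values were 6.81, 6.52 and 7.33 in root controls and 6.27, 5.92 and 6.44 with Cd. The highest Cd array lay just under the lowest control. The group means were 6.88 ± 0.41 and 6.21 ± 0.26 (SD, n = 3), a log2 difference of -0.67 (95% interval -1.22 to -0.13, unadjusted p = 0.0206, limma adjusted p = 0.185). Without root control 3, which had the highest value, the difference was -0.45 (adjusted p = 0.545), so its size rested partly on that array. The green tissue markers were lower in root Cd than in root controls as well, 8 of 8 genes, 1 of which passed (CAB4). Their part in the APX difference was not tested. In such bulk samples fewer cells of a type and less RNA per cell cannot be told apart.

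CAT2 was the second member whose root groups were apart. The root controls lay close together at 11.46, 11.54 and 11.58, and the Cd arrays at 11.16, 11.01 and 11.46. The highest Cd array (11.461) and the lowest control (11.463) nearly touched. The means were 11.53 ± 0.06 and 11.21 ± 0.23, a log2 difference of -0.32 (95% interval -0.64 to 0.0023, adjusted p = 0.292).

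The other catalase, cat1, had the opposite sign in root and the widest spread of the members there. Root controls measured 12.47, 11.94 and 12.90, and root Cd arrays 12.35, 13.06 and 12.84. The groups overlapped, and the lowest and the highest of the 6 values differed by more than 1 log2 unit. The difference was 0.31 (95% interval -0.21 to 0.84, adjusted p = 0.596), and it was 0.07 without root control 2. In root controls 92.0% of all probe sets had a smaller SD than cat1 (0.48). Its values lay near the top of the deposited range, whose maximum is 13.29.

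APX2 and APX1 showed overlapping groups in root. The first APX2 probe set, whose identifier ends in _a_at, had 11.36, 11.27 and 11.15 in controls and 11.30, 11.38 and 11.09 with Cd, a difference of -0.0045 (95% interval -0.71 to 0.70, adjusted p = 0.998). The second had 10.94, 10.99 and 10.76 in controls and 11.15, 11.09 and 10.94 with Cd, a difference of 0.16 (95% interval -0.30 to 0.63, adjusted p = 0.792). Changes of more than 0.71 log2 units in either direction lay outside both intervals. APX1 measured 8.07, 8.33 and 8.32 in controls and 8.67, 8.39 and 8.07 with Cd, a difference of 0.14 (95% interval -0.64 to 0.92, adjusted p = 0.911).

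**Figure D2:**
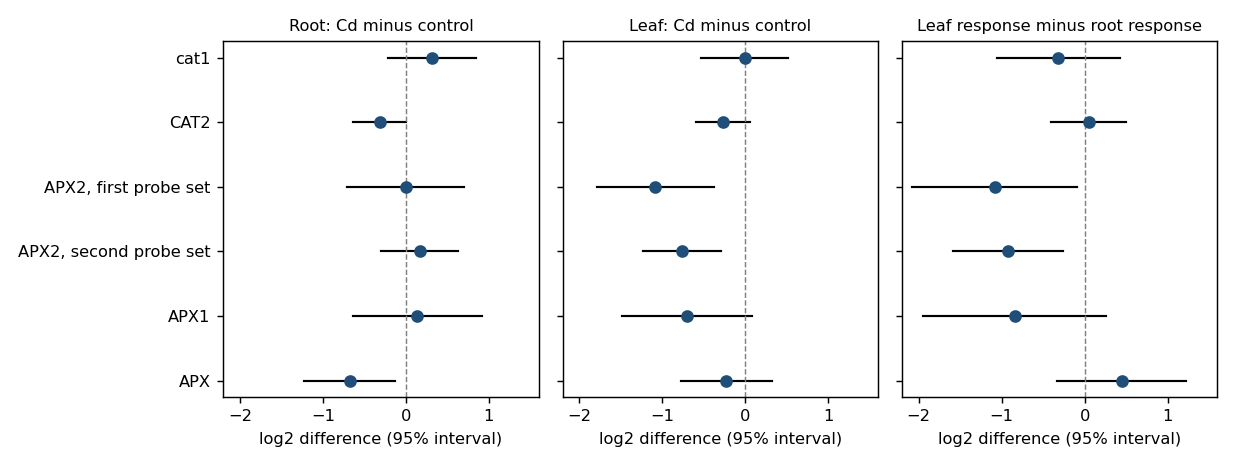
Log2 differences of the 6 probe sets (points) with 95% intervals from limma (lines): root Cd minus root control, leaf Cd minus leaf control, and the leaf response minus the root response. In leaf both APX2 intervals lie below 0 (-1.79 to -0.38 and -1.23 to -0.29), in root that of APX does (-1.22 to -0.13), and the intervals are unadjusted.

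The same was asked for leaf Cd against leaf control. None of the 6 probe sets passed in leaf either (limma, adjusted p of 0.05), where 3.78% of all probe sets passed (2.23% higher and 1.54% lower with Cd). An unadjusted p under 0.05 was found for 2 of the 6, both of APX2, and for 19.2% of all. All 6 differences were negative as deposited, with a median of -0.49 against 0.02 over all probe sets. They are not 6 separate counts, since the 2 APX2 probe sets and APX1 correlated at 0.902 to 0.963 over the leaf arrays. After median centring 5 of 6 were negative, and cat1 was at 0.02. The leaf Cd arrays lay entirely below the leaf controls in 2 of the 6, again both of APX2. Of all probe sets 7.86% did so, and 21.7% had no overlap in either direction.

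APX2 had the largest Cd difference of any member. The first probe set measured 10.60, 10.27 and 10.77 in leaf controls and 9.87, 8.52 and 9.99 in leaf Cd. Every Cd array was below every control, and leaf Cd 2 was much the lowest. The means were 10.55 ± 0.25 and 9.46 ± 0.82, a log2 difference of -1.09 (95% interval -1.79 to -0.38), or a 2.12-fold lower level (adjusted p = 0.0923). With arrays of equal number blocked in both tissues, a pairing that no label states, the adjusted p was 0.0443 (limma, replicate block). In that fit 2.1% of all probe sets passed as lower. In a fit of the 6 leaf arrays alone, which called 0.648% of all probe sets, the adjusted p was 0.292. The second probe set gave 9.63, 9.54 and 9.79 in leaf controls and 8.91, 8.37 and 9.39 in leaf Cd, again with every Cd array below every control. The difference of the second probe set was -0.76 (95% interval -1.23 to -0.29), a 1.70-fold lower level (adjusted p = 0.0791, 0.0555 with the replicate block and 0.265 in the fit of the leaf arrays alone).

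The 2 probe sets of APX2 put the 6 leaf arrays in the same order (correlation 0.963 over the 6 leaf arrays, which both probe sets share). The gap between them was 0.73 to 0.98 in leaf controls, and 0.96, 0.15 and 0.60 on leaf Cd 1, 2 and 3. In root the gap was 0.15 to 0.42. The size of the APX2 difference depended on leaf Cd 2. Without that array the 2 probe sets differed by -0.62 (adjusted p = 0.0706) and -0.50 (adjusted p = 0.120). Without leaf Cd 3, the leaf array with the lowest limma array weight (0.155), they differed by -1.35 (adjusted p = 0.0413) and -1.01 (adjusted p = 0.00891), and both then passed, where 5.87% of all probe sets did. Over the 6 fits that each left out 1 leaf array, the limma adjusted p ran from 0.0413 to 0.249 and from 0.00891 to 0.217. For both probe sets it was highest without leaf control 3.

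APX1, the neighbour of APX2, was low on the same leaf array. Leaf controls measured 7.50, 7.75 and 7.71, and leaf Cd arrays 7.33, 5.92 and 7.60. Leaf Cd 2 stood far below the others, leaf Cd 1 lay somewhat under the controls and leaf Cd 3 inside their range. The means were 7.65 ± 0.13 and 6.95 ± 0.90, a difference of -0.70 (95% interval -1.48 to 0.08, adjusted p = 0.313). Without leaf Cd 2 the difference was -0.19 (adjusted p = 0.618). In leaf Cd 95% of all probe sets had a smaller SD than APX1. Over the 6 leaf arrays APX1 correlated with the APX2 probe sets at 0.93 and 0.902, and over the 6 root arrays at 0.31 and 0.563. These are descriptions over arrays that the probe sets share.

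**Figure D3:**
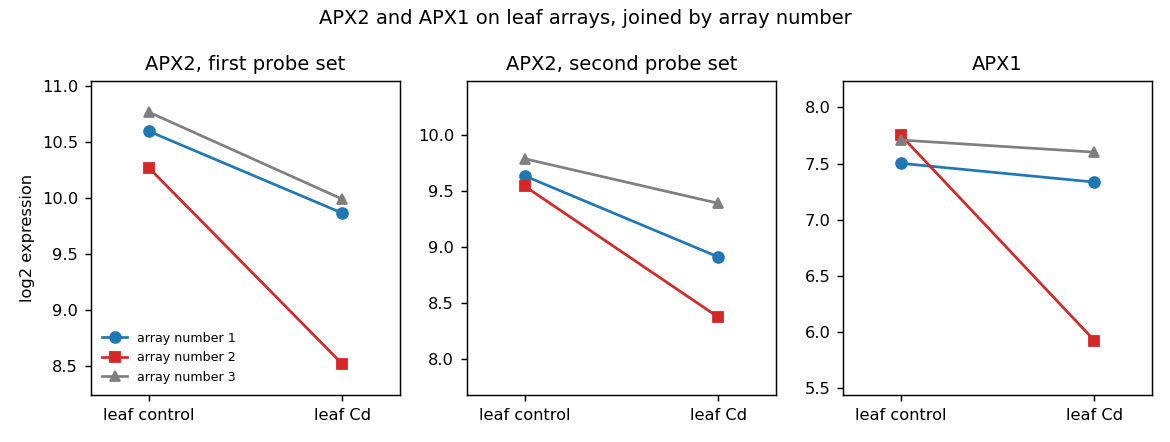
Log2 expression of the 2 APX2 probe sets and of APX1 on the 3 leaf control and 3 leaf Cd arrays, with lines joining arrays of the same number in their titles. All 3 lines go down for both APX2 probe sets (-0.73, -1.75 and -0.78 for the first), whereas for APX1 the change is -1.83 for array number 2 and -0.17 and -0.11 for the others.

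The catalases and APX were nearer to 0 in leaf. CAT2 measured 11.35, 11.17 and 11.09 in controls and 11.12, 10.78 and 10.91 in leaf Cd, with leaf Cd 1 inside the control range. Its difference was -0.27 (95% interval -0.59 to 0.05, adjusted p = 0.355), of the same sign and nearly the size of its root difference. For cat1, controls at 12.59, 12.50 and 12.72 and Cd arrays at 12.75, 12.48 and 12.58 covered the same range. Its difference was -0.0043 with a 95% interval of -0.53 to 0.52 (adjusted p = 0.994), and its sign changed with the scaling. APX measured 7.54, 7.52 and 6.99 in controls and 7.10, 7.46 and 6.81 in leaf Cd, a difference of -0.23 (95% interval -0.78 to 0.32, adjusted p = 0.680). Of the 8 green tissue markers 7 were lower in leaf Cd and 0 passed, and the median difference was -0.20.

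The third comparison tested whether the response to Cd differed between leaf and root. None of the 6 probe sets passed for this interaction (limma), for which 0.757% of all probe sets passed, and for 0.229% the leaf response was the lower. The 2 probe sets of APX2 had an unadjusted p under 0.05, as 15.3% of all did. The leaf response of APX2 was lower than its root response by 1.08 and 0.93 log2 units for the first and second probe set (log2 differences -1.08 and -0.93, 95% intervals -2.08 to -0.09 and -1.59 to -0.27, adjusted p = 0.288 and 0.189). Leaf Cd 2 and leaf Cd 3 moved these values in opposite ways. Without leaf Cd 2 the differences were -0.61 and -0.67 (adjusted p = 0.222 and 0.189). Without leaf Cd 3 the second passed (-1.18, adjusted p = 0.0363), where 1.59% of all probe sets did, and the first did not (-1.35, adjusted p = 0.146). The difference was -0.84 for APX1 (95% interval -1.94 to 0.26), and -0.32 without leaf Cd 2. It was 0.44 for APX (95% interval -0.33 to 1.22). For CAT2 it was 0.05 (95% interval -0.40 to 0.50), so a difference between tissues of more than about 0.50 log2 units lay outside its interval. For cat1 it was -0.32 (95% interval -1.06 to 0.42).

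The last pair of comparisons asked how root and leaf differed, first without Cd. As deposited, 1 of 6 probe sets passed, the second of APX2, where 70.9% of all probe sets passed (61% higher and 9.95% lower in root). After centring 3 of 6 passed, where 43.3% of all did (21.9% higher and 21.3% lower): the second APX2 probe set was higher in root, and APX and cat1 were lower. The APX2 difference was 1.24 as deposited (2.36-fold higher in root, adjusted p = 0.000449) and 0.65 centred (adjusted p = 0.0309). The first APX2 probe set gave 0.71 (adjusted p = 0.0644) and 0.12 (adjusted p = 0.781), so the 2 probe sets agreed on the sign but not on the size.

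APX differed between root and leaf without Cd by -0.47 as deposited, which did not pass (adjusted p = 0.111, and -0.69 with adjusted p = 0.0298 without root control 3), and by -1.06 centred (2.08-fold lower in root, adjusted p = 0.00575). The catalases depended on the scale. cat1 differed by -0.17 as deposited (adjusted p = 0.535) and by -0.76 centred (adjusted p = 0.0232). CAT2 changed sign, at 0.32 as deposited (adjusted p = 0.0664) and -0.27 centred (adjusted p = 0.145). APX1 differed by 0.58 as deposited (adjusted p = 0.156) and -0.0061 centred.

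Root and leaf were then compared with Cd. As deposited 3 of 6 passed as higher in root and 1 as lower, where 61.7% and 11.5% of all did (73.2% together). Centred, 2 passed as higher and 1 as lower, where 21.8% and 24.2% did (45.9% together). APX2 was higher in root Cd than in leaf Cd by 1.79 and 2.17 as deposited (3.47-fold and 4.49-fold, adjusted p = 0.000566 and 1.4e-05), and by 1.18 and 1.55 centred (adjusted p = 0.0113 and 0.000181). APX was lower in root by -0.91 as deposited (adjusted p = 0.00688) and -1.53 centred (2.89-fold, adjusted p = 0.000519). APX1 was higher in root by 1.43 as deposited (adjusted p = 0.00404), and by 0.91 without leaf Cd 2 (adjusted p = 0.00223). At 0.81 centred it no longer passed (adjusted p = 0.0836). The catalases did not pass on either scale, and both changed sign with centring, cat1 from 0.15 to -0.47 and CAT2 from 0.27 to -0.34.

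**Figure D4:**
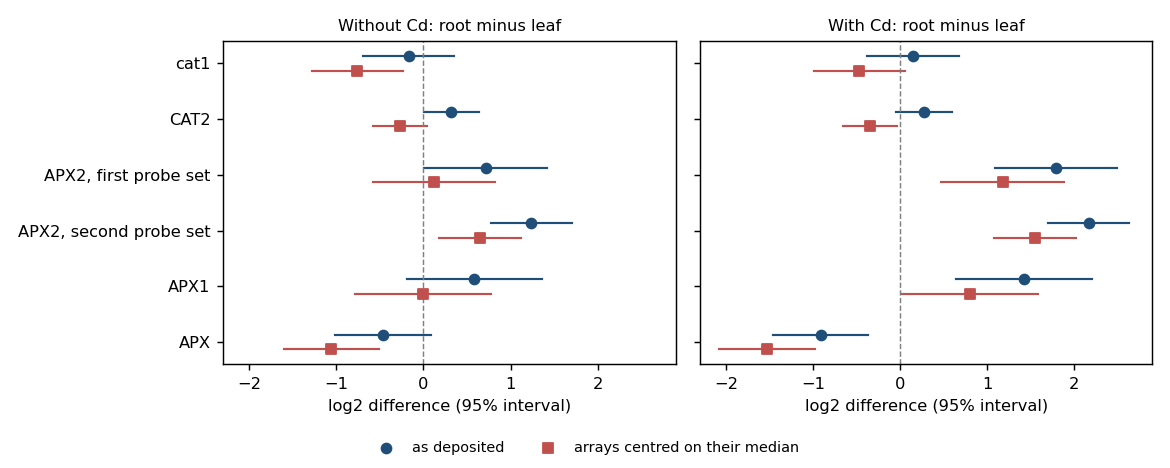
Root minus leaf log2 differences of the 6 probe sets without and with Cd, as deposited (circles) and with each array centred on its median (squares), with 95% intervals. APX2 is to the right of 0 and APX to the left on both scales, while the sign turns with the scale for CAT2 in both panels, for cat1 with Cd and for APX1 (0.58 and -0.0061) without Cd.

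Ordered by centred level, APX ran leaf control, leaf Cd, root control, root Cd, and only the 2 leaf groups overlapped with their neighbour in that order. The first APX2 probe set was highest in root control, then root Cd and leaf control, which overlapped, and lowest in leaf Cd, which was apart. The second ran root Cd, root control, leaf control and leaf Cd, with an overlap between the root groups alone. All neighbouring groups of APX1 overlapped. CAT2 ran leaf control, leaf Cd, root control and root Cd, of which only root Cd was apart from its neighbour. For cat1, leaf Cd and leaf control were above root Cd and root control, the tissues being apart and the groups within each overlapping. As deposited, all neighbouring groups of cat1 overlapped. Of all probe sets, 62.8% had no overlap between root and leaf controls after centring, and 52% had none between root Cd and leaf Cd. Between Cd and control the centred shares without overlap were 27.6% in root and 22.3% in leaf.

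The other genes around hydrogen peroxide were read from lists by symbol, which gave 27 measured genes. In root 2 of the 27 rose and 2 fell, where 1.07% and 1.96% of all probe sets did. In leaf 1 rose and 2 fell, where 2.23% and 1.54% of all did. The leaf response was lower than the root response for 2 (SODCP.2 and LOC544276), as for 0.229% of all. The median differences were -0.10 in root and -0.06 in leaf, against 0.02 over all probe sets in both tissues. The recycling arm of the ascorbate-glutathione cycle had 3 genes, 0 of which passed for Cd in either tissue. The monodehydroascorbate reductase MDHAR differed by 0.40 in root and -0.59 in leaf. The dehydroascorbate reductases DHAR1 and DHAR2 differed by -0.22 and -0.63 in root and by 0.33 and 0.02 in leaf. As deposited MDHAR was higher in root Cd than in leaf Cd (2.14, adjusted p = 0.000519), and DHAR1 (-1.69, adjusted p = 0.000252) and DHAR2 (-0.89, adjusted p = 0.000981) were lower. In that comparison 73.2% of all probe sets passed. Centred, the differences of these 3 genes were 1.53, -2.31 and -1.51. Without Cd, MDHAR (1.15, adjusted p = 0.018) and DHAR1 (-1.15, adjusted p = 0.00274) passed as deposited, as 70.9% of all did. DHAR2 did not (-0.24, adjusted p = 0.238). None of the 3 passed for the difference of responses.

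The 3 superoxide dismutases, which produce hydrogen peroxide, had negative differences in both tissues, and 1 of 3 passed in each. The chloroplast copper/zinc enzyme SODCP.2 fell in root (-0.87, adjusted p = 0.0447) and in leaf (-3.73, adjusted p = 1.48e-05), and the difference between its responses passed (-2.86, adjusted p = 0.00159). The iron enzyme FESOD (-0.48 and -0.58) and SODCC.1 (-0.53 and -0.63) did not pass. Of the copper carriers, CCS, which loads superoxide dismutase with copper, fell in leaf (-0.84, adjusted p = 0.0153) and CCH rose there (0.72, adjusted p = 0.00733), and neither passed in root. The NADPH oxidases RBOH1 (-0.24 in root) and Wfi1 (0.37 in root, 0.43 in leaf) did not pass, and RBOH1 was above background on 1 of the 6 leaf arrays.

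None of the 4 genes of glutathione synthesis and glutathione peroxidase passed for Cd. GSH1 and GSH2, the enzymes of glutathione synthesis, differed by 0.55 and 0.59 in root and by -0.39 and -0.19 in leaf. The glutathione peroxidases GPXle-1 (-0.07 and 0.17) and GPXle-2 (0.10 and 0.32) were nearer to 0. Ascorbate synthesis, with GLDH (-0.17 in root, -0.44 in leaf) and GMP (-0.44 and -0.46), and the thioredoxin CITRX (-0.59 and -0.29) did not pass either. Of the 3 class III peroxidases, which use phenolic substrates in the cell wall and vacuole, 0 passed: TPx1 (0.14 and 0.17), TPX2 (-0.52 in root, at background on all leaf arrays) and CEVI-1 (0.71 in leaf, above background on 1 of the 6 root arrays).

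Of 4 genes in the list for the glyoxylate cycle and photorespiration, LOC544276 (synonym ICL) rose in root (4.60, adjusted p = 0.000618, and -3.97 for the leaf minus the root response, adjusted p = 0.0159) and the malate dehydrogenase chMDH fell there (-1.49, adjusted p = 0.0266), while gMDH (-0.98) and mdh (-0.52) did not pass, and in leaf 0 of 4 passed. In the list for alternative oxidase and uncoupling, the uncoupling protein UCP rose in root (0.69, adjusted p = 0.00941). The alternative oxidase AOX1a (0.54 in root, 0.67 in leaf) and the plastid terminal oxidase PTOX (-0.10 and 0.83) did not pass.

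**Figure D5:**
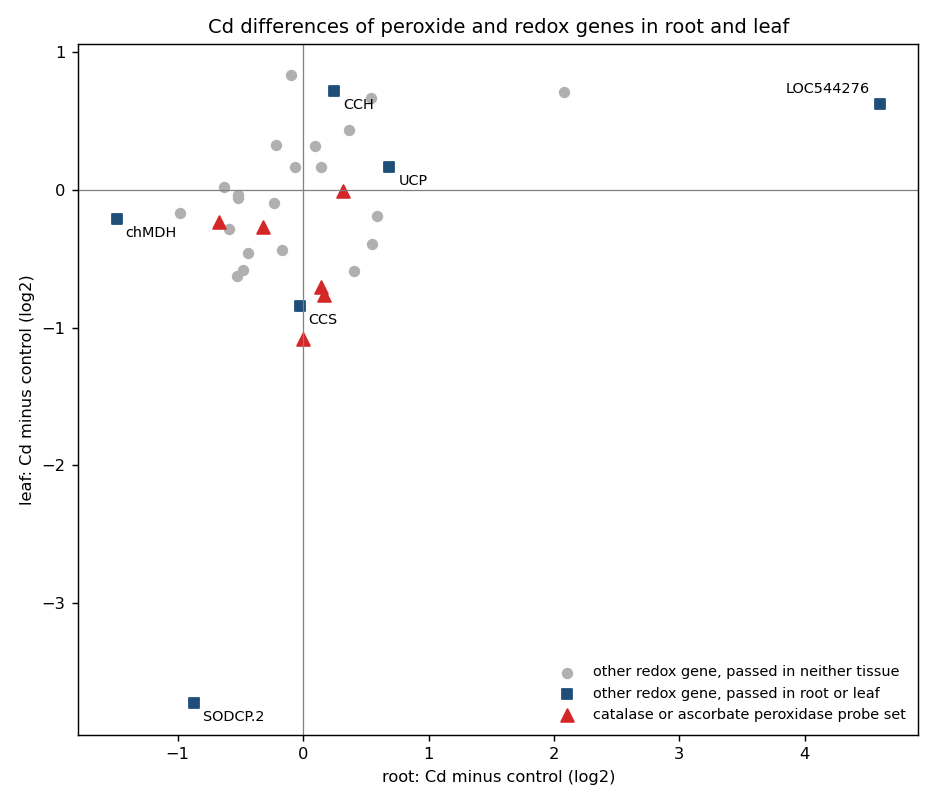
Cd minus control in root (horizontal, log2) against leaf (vertical, log2) for the 6 catalase and ascorbate peroxidase probe sets (triangles) and the 27 other peroxide and redox genes (squares where the gene passed an adjusted p of 0.05 in root or leaf, circles where it did not). The triangles lie between -0.67 and 0.31 in root and between -1.09 and 0.00 in leaf, while SODCP.2 (-3.73 in leaf) and LOC544276 (4.60 in root) lie far outside, and CEVI-1 in root and RBOH1 and TPX2 in leaf were not above background on most arrays.

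The named genes most like each member were ranked by the lower of their correlations over the 6 root and the 6 leaf arrays, among 797 candidates. Closest to CAT2 were ChrC, a carotenoid-associated plastid protein (0.991 in root, 0.912 in leaf), and LOC543677 (0.927 and 0.903). Closest to APX were LOC778267 (0.925 and 0.875) and VDE, the violaxanthin de-epoxidase (0.884 and 0.87). For cat1 they were cevi19 (0.818 and 0.931) and adc1 (0.742 and 0.906), for APX2 ACI29 (0.777 and 0.773) and PGH1 (0.724 and 0.913), and for APX1 TGAS118 (0.665 and 0.762) and krp2 (0.591 and 0.899). These are the highest of many correlations over few arrays that all genes share, and are given as a description.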

How the data were processed

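The deposited table holds log2 expression per probe set for 12 single-colour Affymetrix arrays. Per the submitters' processing notes the authors used MAS5 and RMA, with neither version nor role given, so how the deposited log2 values were scaled and centred is not known. Array medians were used to describe that scale. Of 10209 probe sets, 171 controls were left out. The array annotation names 909 of the other 10038, and 885 of these were matched to a current RefSeq gene table (assembly SLM_r2.1). Where a gene had several probe sets, that with the highest mean led.

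Group means were fitted over all 12 arrays with limma 3.58.1 (R 4.3.3, prior degrees of freedom 2.84, residual 8), with 5 contrasts and two-sided p-values adjusted over 10038 probe sets by the Benjamini-Hochberg method (threshold 0.05). The procedure was tested on simulated data. Background was the highest of 23 negative control probe sets on each array. Python 3.11.15 with pandas 2.3.3 summarised the fits and matplotlib 3.10.9 drew them. The number of arrays limits the precision.

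The members and gene lists were chosen with earlier results of these data known. Lists were matched by symbol or synonym. Named were all members, list genes past the threshold for Cd, up to 4 others a list, and the 2 genes most like each member. Equal array numbers were checked as pairs by correlating deviations from group means across probe sets. The correlations were 0.36, 0.42 and 0.12 in leaf, all above 0.1, and 0.00, -0.26 and 0.06 in root. Arrays of unequal number gave -0.457 to 0.0658 in leaf and -0.316 to 0.405 in root. Deviations from a group mean cancel within the group, so the correlations of equal and unequal numbers are not independent. The labels state no pairing. The replicate block was fitted in root and leaf together, so its leaf values also rest on a root block without such correlations. Alternatives covered the samples fitted, the block, array weights, normalization, filtering, the variance prior, averaging probe sets, and leaving out each array.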

Additional observations from a re-analysis of the deposited data

How the results depend on the processing

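The number of the 6 member probe sets called is given here with the share of all probe sets called in the same fit. For root Cd against control, 0 were called, but 1 with the replicate block (APX, -0.67, adjusted p = 0.0465, 4.19% of all) and 3 with array weights (APX, CAT2 and APX1, 37.3% of all). No label states the pairing that the block uses, and root deviations of equal array number correlated at 0.00, -0.26 and 0.06. For leaf, 0 were called, but 1 with the replicate block (APX2, 3.75%, root blocked in the same fit) and 2 with array weights (5.45%). When 1 array was left out, 0 to 2 were called (2 without leaf Cd 3, 5.87%). With the leaf arrays fitted alone 0 were called (0.648%). For the difference of responses, 0 were called, but 2 with array weights (APX1 and the second APX2 probe set, 7.02%). When 1 array was left out, 0 to 1 were called for it (1 without leaf Cd 3, 1.59%). For root against leaf controls, 1 was called, but 4 with array weights (83.2%), 3 with arrays centred on their median (43.3%) and 2 with a trended variance prior (71.3%), and 1 to 2 when 1 array was left out (2 without root control 3, 68.7%). Array weights were 8.12 for root control 1 and 5.6 for root Cd 1, and at most 1.6 elsewhere. Root Cd against leaf Cd gave 4 (73.2%), and 4 in every case where 1 array was left out (66.1% to 73.9%). With arrays centred on their median it gave 3 (45.9%). The cause of these shifts was not tested.

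The following differences, which did not pass as reported on the deposited scale, turned in sign under some settings. In root, APX2's first probe set turned to 0.0068 after quantile normalization and 0.080 as the mean of both probe sets, and spanned -0.064 to 0.077 when 1 array was left out. APX1 spanned -0.0091 to 0.29. In leaf, cat1 turned to 0.012 with array weights, 0.017 centred and 0.044 after quantile normalization, and spanned -0.077 to 0.057. CAT2's difference of responses turned to -0.0041 after quantile normalization and spanned -0.049 to 0.17. Root minus leaf with Cd turned for cat1 to -0.15 with array weights and -0.47 centred (-0.0030 to 0.35 when 1 array was left out), and for CAT2 to -0.34 centred. Without Cd it turned for CAT2 to -0.27 and for APX1 to -0.0061 centred, and for cat1 it spanned -0.40 to 0.079.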
